A study of Mus musculus with 6 samples.

Results

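The expression of 37 genes of G2 phase and mitosis was followed in C2C12 cells, an established mouse myoblast line, after transfection with an siRNA that targets Meg3, a long non-coding RNA. The 37 genes were given as a list of mitotic kinases and cyclins, checkpoint and kinetochore genes, kinesins, spindle and cytokinesis genes and proliferation markers; the list uses no measured value, but was drawn up with earlier results of these data known. On the single-colour Agilent mouse array used, 50 of 39429 non-control probes carried a RefSeq accession of these genes, which are 37 of the 20659 genes that could be named. The siRNA-MEG3 group and the siRNA-NC group, which received a negative control siRNA, each had 3 arrays labelled as biological replicates, and the labels name no engineered allele in either. Cells of both groups grew in medium with 10% serum and were transfected when they had grown to 70 to 80%, with an siRNA amount that the labels give as "20 um". The time from transfection to RNA extraction and the siRNA sequences are not given in the sources used here, and a single cell line limits what the comparison covers. The question was how the transcripts of G2 and mitosis differ between the groups, gene by gene and probe by probe.

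Entry into mitosis is driven by the kinase CDK1 bound to cyclins A and B, which the phosphatase CDC25C activates. Aurora and Polo-like kinases then act at centrosomes, centromeres and the spindle, the spindle checkpoint holds back the anaphase-promoting complex until all chromosomes are attached, and kinesins and midzone proteins separate the chromosomes and divide the cell. Most of these genes are transcribed in G2 from promoters that hold a CHR element and CCAAT boxes, bound by the MuvB complex with B-MYB or FOXM1 and by NF-Y. In muscle the group is known for its loss when myoblasts leave the cell cycle to form myotubes, which no longer divide.

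The promoters of the list are shown first because these shared elements are what the genes have in common in sequence. RefSeq promoter windows of 300 bases (250 before to 50 after the start, GRCm38.p6) were held for 30 of the 37 genes; Ccna2, Cdc25c, Bora, Aurkb, Kif20a, Tpx2 and Dlgap5 were not matched. The CHR core TTTGAA, searched on both strands (it can share 1 end letter with the other motif), lay in 22 of the 30 (73.3%), against 20.2% of 27025 genes. CCAAT, searched likewise, lay in 23 of the 30 (76.7%), against 41.1% of genes, and 19 of the 30 held both, against 7.97% of genes. Below are the 120 bases before the start of 4 members, 5′ to 3′, with TTTGAA and CCAAT in capitals (TTCAAA and ATTGG are the same motifs on the opposite strand). Cdk1 is the gene on which the results turn, Kif11 had the highest fold change among the members with both motifs, and Cdc20 and Top2a had fold changes close to 0. They lie at chr10:69352913-69353032 (minus strand), chr19:37376262-37376381 (plus strand), chr4:118437344-118437463 (minus strand) and chr11:99024190-99024309 (minus strand).
Cdk1: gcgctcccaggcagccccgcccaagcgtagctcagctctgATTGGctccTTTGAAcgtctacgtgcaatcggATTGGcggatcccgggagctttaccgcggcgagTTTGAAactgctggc
Kif11: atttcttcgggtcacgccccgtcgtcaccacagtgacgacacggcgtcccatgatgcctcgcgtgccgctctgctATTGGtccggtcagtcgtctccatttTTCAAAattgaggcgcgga
Cdc20: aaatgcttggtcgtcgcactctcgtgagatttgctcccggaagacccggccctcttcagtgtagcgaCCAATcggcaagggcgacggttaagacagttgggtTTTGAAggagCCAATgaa
Top2a: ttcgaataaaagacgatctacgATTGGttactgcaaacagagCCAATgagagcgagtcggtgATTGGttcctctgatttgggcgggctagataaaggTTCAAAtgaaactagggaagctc
All 4 stretches held both motifs, with the last TTTGAA within 23 bases of the start. Matches are letters in a window and not measured sites. The median log2 fold change was 0.19 in the 22 genes with TTTGAA and 0.091 in the 8 without.

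Of the 50 probes, 48 from all 37 genes were kept, 46 of them well above background on all 6 arrays. Values are log2 signals relative to the array's 75th percentile, and a level of one probe is not set against that of another. Where 3 values of a group are given, they are those of arrays 1, 2 and 3 in that order. On siRNA-MEG3 arrays 1 and 3 the deviations of single spots from their probe means went together (r = 0.983 over 2091 spots), as in repeat scans of the same hybridised array, and the difference between siRNA-NC arrays 1 and 3 was no larger than spot noise, so each pair was averaged and every test below compares 2 samples with 2. The variance of probe differences over that of spot noise was 1.04 for siRNA-NC arrays 1 and 3 and 159 for siRNA-NC arrays 1 and 2. For siRNA-MEG3 array 2 it was 1.33 against array 1 and 1.45 against array 3, so the siRNA-MEG3 samples differed by little more than spot noise; taken as 1 sample they gave 3 lower and 0 higher member probes. The p-values rest on the spread between samples within both groups, which was larger with siRNA-NC. For the members, by brightest kept probe, the median gap in size was 0.39 with siRNA-NC and 0.073 with siRNA-MEG3. Over all kept probes it was 0.40 and 0.13. The spread between the siRNA-MEG3 samples may in part be technical. The siRNA-NC arrays shared a scan and the siRNA-MEG3 arrays had others, and the effects of scan and group cannot be told apart. Single-spot deviations of siRNA-MEG3 array 2 went with those of siRNA-NC arrays 1, 2 and 3 (r = 0.50, 0.52 and 0.43). Against siRNA-MEG3 arrays 1 and 3 they stood at r = -0.17 and -0.19. Between 62.8 and 75.2% of spots were well above background and no spot was saturated. Of the 3 Meg3 probes, 1 was well above background on any siRNA-NC array and 0 on any siRNA-MEG3 array, so the knockdown itself could not be measured. All 6 myoblast markers tested (Myod1, Myf5, Des, Cdh15, Vcam1 and Itga7) were well above background on all 6 arrays. Their summed signal, in units of the array's 75th percentile, was 29.2 to 33.5 with siRNA-NC and 42.0 to 44.0 with siRNA-MEG3. By limma 0 of these markers passed. At an unadjusted p under 0.05, 3 were higher and 1 lower, beside 10.6% and 6.46% of named genes. Values ran from Myf5 at -2.95 ± 0.41 SE to Myod1 at 2.21 ± 0.43 SE.

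Of the 37 mitotic genes 1 passed, Cdk1, which was lower with siRNA-MEG3 on 1 of its 3 probes. The others did not pass, and most estimates were small. With outlier spots kept, and in the authors' deposited values, another Cdk1 probe was the brightest. By brightest probe 0 of the 37 genes then passed. Among the 48 kept probes, 1 probe of Cdk1 was lower with siRNA-MEG3 (0.349% of all 26381 kept probes were called lower) and 0 were higher (0.872% of all kept probes; 1.22% in either direction), by limma with Benjamini-Hochberg adjustment over all probes. At an unadjusted p under 0.05 the counts were 6 lower (8.85% of all kept probes) and 3 higher (9.54%). No probe anywhere on the array passed with a log2 fold change under 1.86 in size, so smaller differences could not be called with these samples. Taking the brightest kept probe of each gene, the fold change was positive for 23 members and negative for 14, with a median of 0.14 on the log2 scale, beside a median of 0.015 and 51.3% positive among 15395 named genes. The 95% interval lay wholly within 2-fold in either direction for 19 of the 37 members, excluded a 2-fold decrease for 30 and excluded a 2-fold increase for 25. All 3 siRNA-MEG3 arrays lay above all 3 siRNA-NC arrays for 15 members (27.5% of named genes) and below them for 8 (19.6% of named genes). In bulk RNA, fewer dividing cells and less RNA per cell cannot be told apart.

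**Figure D1:**
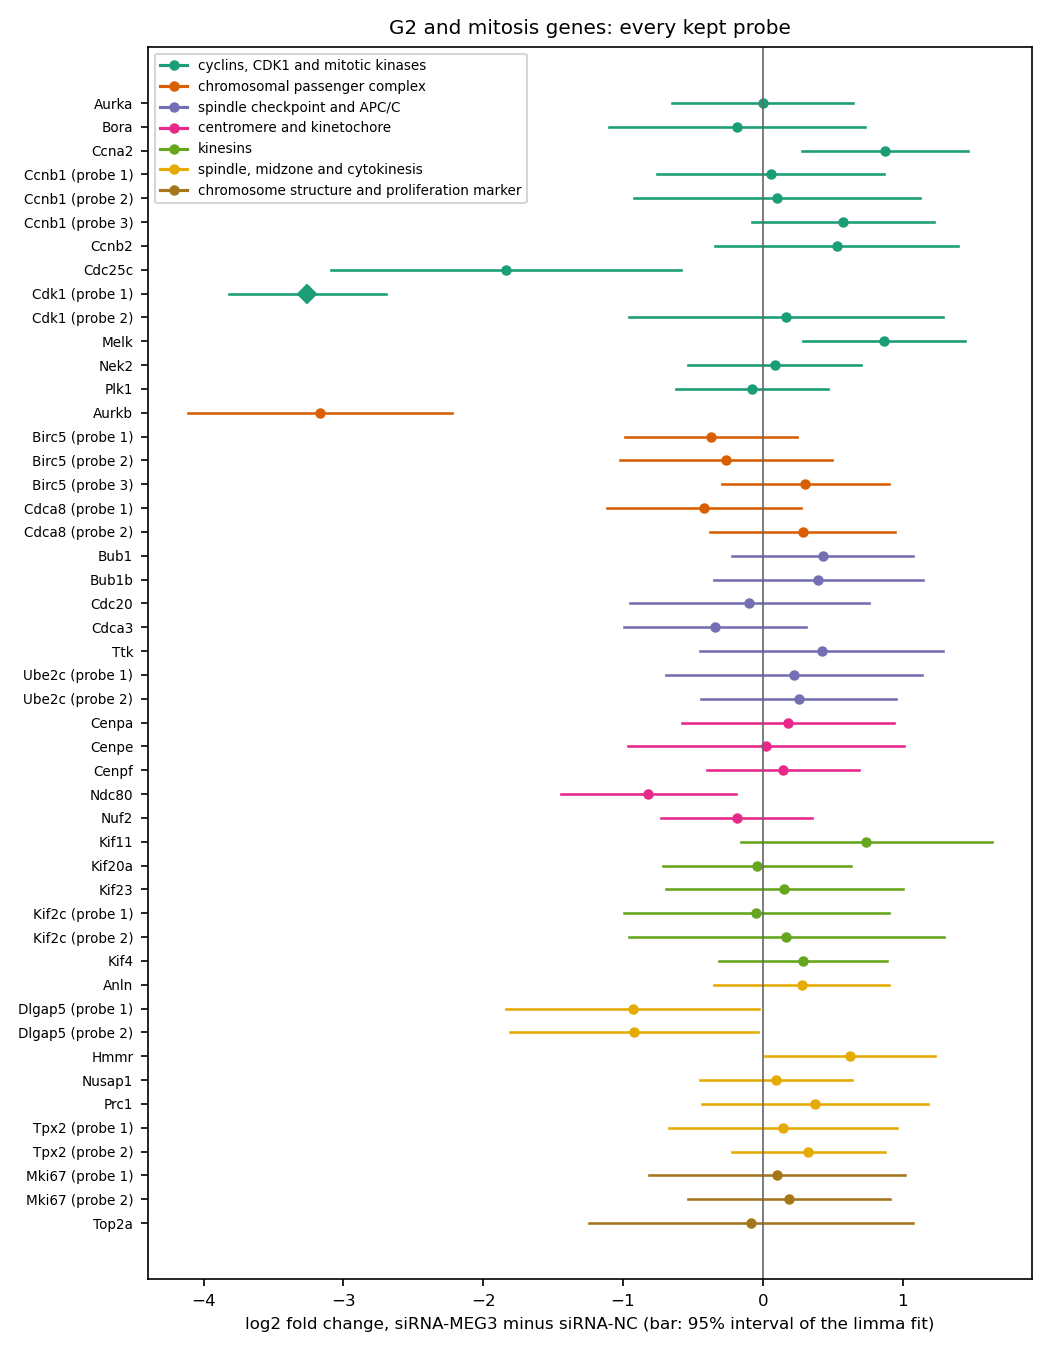
Log2 fold change of siRNA-MEG3 over siRNA-NC (horizontal axis) for each of the 48 kept probes of the 37 genes, coloured by role, with bars for the 95% interval of the limma fit and a diamond for the called probe. Cdk1 probe 1 at -3.26 and Aurkb at -3.17 lie far from the other probes, most of which have bars that cross 0.

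Cdk1, the kinase that drives mitotic entry, was the member that passed, on 1 of its 3 probes. Probe A_55_P2016652 read -1.06, -1.40 and -1.88 in siRNA-NC cells against -4.72, -4.61 and -4.84 in siRNA-MEG3 cells. Every siRNA-MEG3 array lay below every siRNA-NC array, and the gap between the groups was wider than the range within either. This probe fell by 3.26 on the log2 scale (0.21 SE, n = 2 samples per group, 95% interval -3.82 to -2.70, limma adjusted p = 0.0259), a 9.58-fold lower signal.

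The other Cdk1 probes did not show a change of this size. Probe A_55_P2048588 read 1.91, 1.48 and 1.92 in siRNA-NC cells against 0.80, 0.77 and 0.79 in siRNA-MEG3 cells; its spot was marked as an outlier on siRNA-MEG3 arrays 1 and 3, and the probe was therefore not kept. Its siRNA-MEG3 arrays also lay below the siRNA-NC arrays, but by less: with marked spots included the difference was -0.92 (95% interval -1.58 to -0.25, adjusted p = 0.184), a 1.89-fold lower signal. The third probe, A_55_P2016647, read -5.81, -6.76 and -6.15 in siRNA-NC cells against -6.50, -5.85 and -6.62 in siRNA-MEG3 cells and was well above background on array 2 alone among the siRNA-MEG3 arrays. It was kept through the siRNA-NC group alone. Its groups overlapped, at 0.16 ± 0.41 SE (95% interval -0.96 to 1.29, limma adjusted p = 0.877). The kept Cdk1 probes differed by 3.42 in log2 fold change, a gap of over 1 that 15.4% of 3482 genes with several kept probes showed. The low probe did not pass under normexp background correction of all spots (-0.95, limma adjusted p = 0.677). It also missed the threshold without the filter on dim probes (-3.26, limma adjusted p = 0.0721). Under either setting 0 probes over the whole array passed. Under normexp the estimate of the low Cdk1 probe also moved, from -3.26 to -0.95. With the spots under a bright speck on siRNA-MEG3 array 2 left out, that correction gave -2.19. The cause was not tested. Without siRNA-NC array 2, which leaves 1 siRNA-NC sample, the low probe stood at -3.23.

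Aurkb, the catalytic kinase of the chromosomal passenger complex, had a single probe and missed the threshold narrowly. It read -2.49, -3.04 and -2.44 in siRNA-NC cells against -5.74, -6.22 and -5.50 in siRNA-MEG3 cells. The groups were far apart on every array, at -3.17 ± 0.35 SE (95% interval -4.11 to -2.22, adjusted p = 0.0501). Before scaling, the processed signal was 229.6, 277 and 227 in siRNA-NC cells against 24.4, 17.9 and 27.3 in siRNA-MEG3 cells, all well above background. Aurkb was negative under all 23 alternatives run. Fits that count near-identical arrays as separate samples, or that have 1 siRNA-MEG3 sample, are not counted here as passing. With 2 samples per group Aurkb passed under some alternatives, as with 1 probe per gene (limma adjusted p = 0.0317). It did not pass under others, as with the authors' deposited values (limma adjusted p = 0.0598). Under normexp background correction it was much closer to 0, at -0.020 (adjusted p = 0.994) over all spots and -1.59 (adjusted p = 0.0976) with the spots under a bright speck on siRNA-MEG3 array 2 left out.

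The spots of the low Cdk1 probe and of Aurkb lay in regions of siRNA-MEG3 arrays 1 and 3 where a raised share of spots read low. Blocks of 30 by 17 spots were called dark where more than 5% of their spots stood over 4-fold below siRNA-NC, and they held 33.9% of the spots of siRNA-MEG3 array 1, 25.0% of array 3 and 5.95% of array 2, and 0 of the siRNA-NC arrays. On array 2 none of the 48 member probes had a spot in such a block, against 17 on array 1 and 14 on array 3. The block of the low Cdk1 probe held 7.78 and 6.59% low spots on arrays 1 and 3, and that of Aurkb 12.8 and 10.4%. The median block held 3.25 and 3.27%. For repeated probes, only spots unmarked and well above background on every array were compared. In the dark blocks of arrays 1 and 3 they deviated from their probe means by -0.0097 and -0.0079 on average. On array 1, 1.74% of them in dark blocks lay over 2-fold below the probe mean, against 0.074% elsewhere. On array 3 the shares were 1.40 and 0.26%. Array 2 alone put the low Cdk1 probe at -3.18 and Aurkb at -3.47. With the dark-patch spots left out, these probes have array 2 as their 1 siRNA-MEG3 sample, which is assumed to vary like the siRNA-NC samples, and limma gave an adjusted p of 0.0390 for Cdk1 and 0.0476 for Aurkb.

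**Figure D2:**
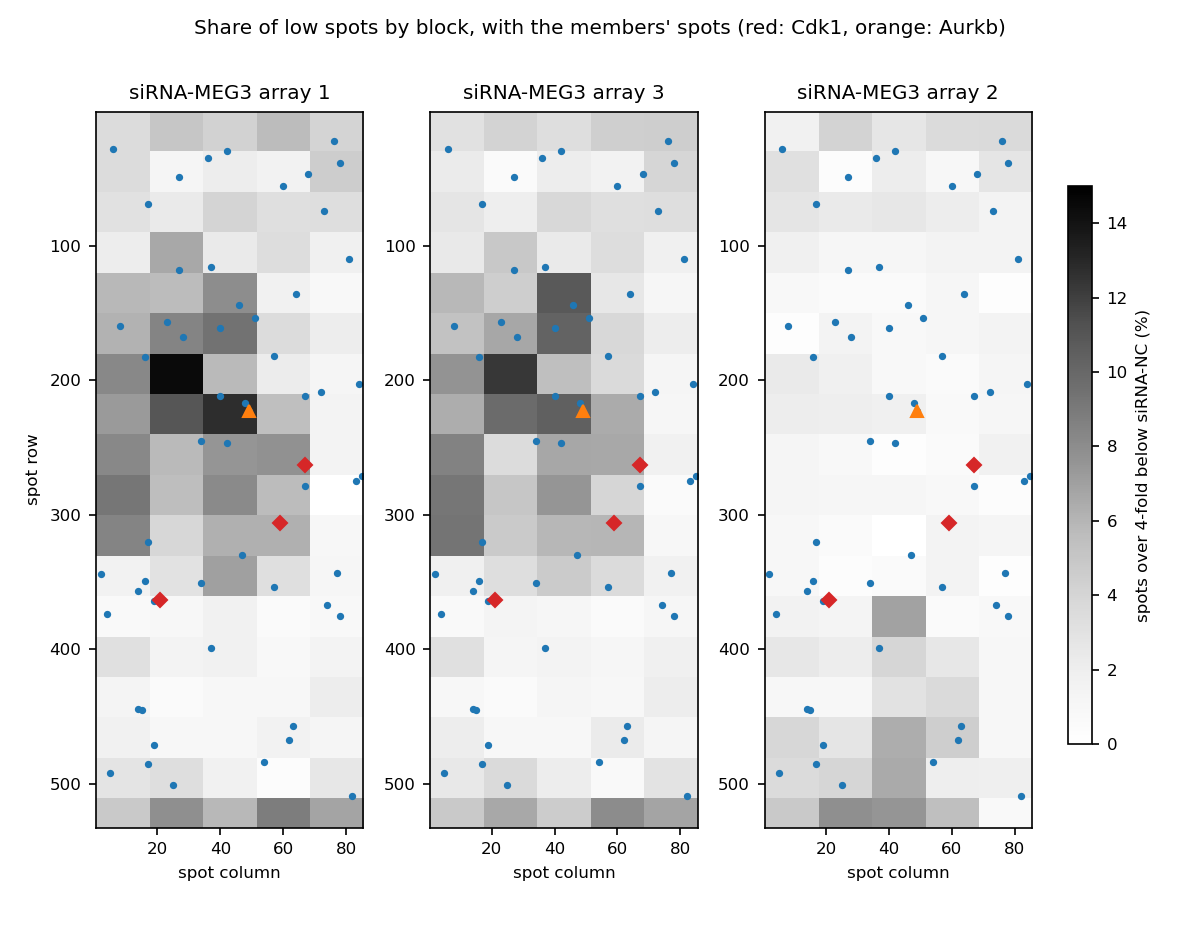
Share of spots more than 4-fold below siRNA-NC in blocks of 30 by 17 spots (grey scale, %), over the spot columns and rows of the 3 siRNA-MEG3 arrays, with the members' spots in blue, Cdk1 in red and Aurkb in orange. On arrays 1 and 3, which were averaged as 1 sample, Aurkb and 2 Cdk1 spots sit in darker blocks, while the same positions on array 2 are light.

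Among the 10 genes for cyclins, CDK1 and mitotic kinases, 1 was called lower (Cdk1, on 1 of its 3 probes), 0 higher and 9 did not pass. By brightest kept probe 5 had positive and 5 negative fold changes. Cdc25c, the phosphatase that activates CDK1, read -5.00, -4.69 and -5.09 in siRNA-NC cells against -7.14, -6.13 and -7.43 in siRNA-MEG3 cells. All siRNA-MEG3 arrays lay below the siRNA-NC arrays, though only array 2 was well above background there, and its spots on arrays 1 and 3 lay in dark blocks. The probe was kept through the siRNA-NC group alone. There it was well above background on every array but dim, with processed signals of 40.2, 88.4 and 36.1. The fitted difference of -1.84 (limma adjusted p = 0.169) takes in the signals that were not well above background, and on array 2 alone it was -1.26. With normexp background correction of all spots it turned positive, at 1.18. With the spots under a bright speck on siRNA-MEG3 array 2 left out, that correction gave -0.41. The cause was not tested.

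The cyclin genes had positive values, none of which passed. Ccna2, cyclin A2 of S phase and G2, read 2.40, 2.18 and 2.39 in siRNA-NC cells against 3.07, 3.24 and 3.10 in siRNA-MEG3 cells. Every siRNA-MEG3 array was above every siRNA-NC array, at 0.87 ± 0.22 SE (95% interval 0.28 to 1.46, adjusted p = 0.167). Ccnb2, cyclin B2, read 2.46, 1.72 and 2.43 in siRNA-NC cells against 2.67, 2.55 and 2.67 in siRNA-MEG3 cells, with siRNA-NC array 2 lower than the other 5 arrays and a difference of 0.53 ± 0.32 SE (adjusted p = 0.472). For Ccnb1, cyclin B1, the brightest of 3 probes read 2.95, 2.31 and 2.96 in siRNA-NC cells against 2.77, 2.66 and 2.72 in siRNA-MEG3 cells. The groups overlapped, at 0.057 ± 0.30 SE (95% interval -0.76 to 0.87). Another Ccnb1 probe, A_55_P1952256, read 0.25, 0.63 and 0.25 against 1.07, 0.96 and 1.06 in the same order, without overlap, and gave 0.57 ± 0.24 SE. The third, A_55_P2128668, overlapped between the groups and gave 0.10 ± 0.38 SE; all 3 probes were positive and none passed.

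Plk1, the Polo-like kinase of centrosomes, spindle and cytokinesis, read 0.70, 0.59 and 0.65 in siRNA-NC cells against 0.57, 0.55 and 0.55 in siRNA-MEG3 cells. The siRNA-MEG3 arrays lay just below the siRNA-NC arrays, by -0.078 ± 0.20 SE (95% interval -0.62 to 0.46), so a change of 2-fold in either direction lay outside the interval. Aurka, the Aurora kinase of centrosomes and spindle poles, read 1.20, 0.90 and 1.36 in siRNA-NC cells against 1.13, 1.04 and 1.14 in siRNA-MEG3 cells. Its groups overlapped, with a difference of -0.00083 (95% interval -0.65 to 0.65), which also excluded 2-fold in either direction. Melk, a kinase gene expressed in dividing cells, read 0.22, 0.0047 and 0.24 in siRNA-NC cells against 0.94, 1.01 and 0.97 in siRNA-MEG3 cells and lay above siRNA-NC on every siRNA-MEG3 array (0.87 ± 0.21 SE, adjusted p = 0.165). Nek2, a centrosomal kinase, and Bora, the activator of Aurora A, stood at 0.086 (95% interval -0.53 to 0.71) and -0.19 (-1.10 to 0.73). The Bora spot lay in dark blocks on siRNA-MEG3 arrays 1 and 3, where it read lower than on array 2, and Bora was positive, at 0.21, on array 2 alone.

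**Figure D3:**
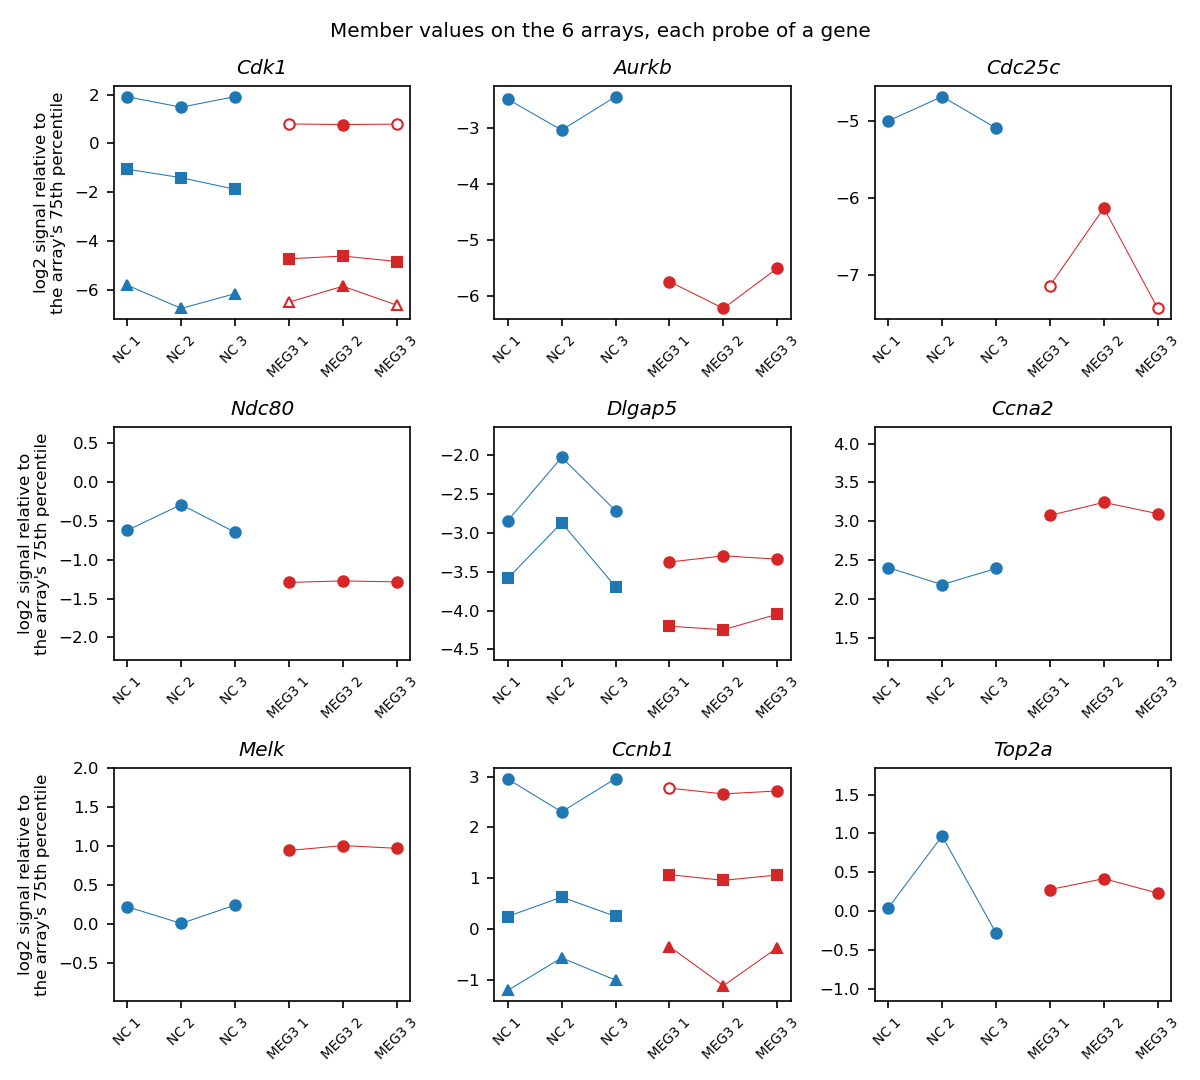
Log2 signal relative to the array's 75th percentile (vertical axis) on each of the 6 arrays for every probe of 9 members, siRNA-NC in blue and siRNA-MEG3 in red, with open symbols for values that were marked as outliers or not well above background and a marker shape per probe. The middle Cdk1 probe and Aurkb drop on all 3 siRNA-MEG3 arrays, Ccna2 and Melk lie higher, and Top2a and the brightest Ccnb1 probe overlap between the groups.

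In the chromosomal passenger complex, which corrects chromosome attachment and then moves to the midzone, 0 of 3 genes passed. Aurkb stood apart from its partners. Birc5, encoding the subunit survivin, read 3.25, 2.87 and 3.02 in siRNA-NC cells against 3.26, 3.36 and 3.25 in siRNA-MEG3 cells on its brightest probe, the siRNA-MEG3 arrays being just above the siRNA-NC arrays (0.31 ± 0.22 SE). Its other probes had negative values, -0.37 ± 0.23 SE and -0.26 ± 0.28 SE. Cdca8, encoding borealin, was split in the same manner, at 0.28 ± 0.24 SE on the brighter probe and -0.42 ± 0.26 SE on the other. Probes on both sides of 0 were found in 39.7% of the genes with several kept probes. Every Birc5 and Cdca8 interval excluded a decrease of the size seen for Aurkb.

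None of the 6 checkpoint and anaphase-promoting complex genes passed; 4 were positive and 2 negative. Bub1, a checkpoint kinase printed in 10 spots per array, read 1.55, 1.15 and 1.53 in siRNA-NC cells against 1.73, 1.79 and 1.73 in siRNA-MEG3 cells. All siRNA-MEG3 arrays were higher, by 0.43 ± 0.24 SE, while the SD between its unmarked spots ranged from 0.057 to 0.17 within an array. Bub1b, encoding BubR1 of the mitotic checkpoint complex, read -0.58, -0.048 and -0.63 in siRNA-NC cells against 0.056, 0.068 and 0.091 in siRNA-MEG3 cells, without overlap, and gave 0.40 ± 0.27 SE. siRNA-NC array 2 came nearest to the siRNA-MEG3 arrays. Ttk, the checkpoint kinase MPS1, gave 0.42 ± 0.32 SE and was also higher on every siRNA-MEG3 array. Cdc20, the activator of the anaphase-promoting complex that the checkpoint restrains, read 3.61, 2.89 and 3.59 in siRNA-NC cells against 3.15, 3.15 and 3.15 in siRNA-MEG3 cells. The siRNA-MEG3 arrays lay between siRNA-NC array 2 and the other siRNA-NC arrays, at -0.10 ± 0.31 SE (95% interval -0.95 to 0.76). Cdca3, a mitotic entry factor, read 0.89, 0.54 and 0.97 in siRNA-NC cells against 0.42, 0.36 and 0.43 in siRNA-MEG3 cells and was lower on every siRNA-MEG3 array (-0.35 ± 0.24 SE). Ube2c, the ubiquitin-conjugating enzyme of the complex, stood at 0.26 ± 0.26 SE and 0.22 ± 0.34 SE on its probes.

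Of the 5 centromere and kinetochore genes 0 passed. Ndc80, which makes the main microtubule contact of the kinetochore, read -0.62, -0.29 and -0.65 in siRNA-NC cells against -1.29, -1.27 and -1.29 in siRNA-MEG3 cells. The siRNA-MEG3 arrays lay close together and below all siRNA-NC arrays, at -0.82 ± 0.23 SE (95% interval -1.44 to -0.19, adjusted p = 0.194). Nuf2, the direct partner of NDC80 in the same complex, was also lower on every siRNA-MEG3 array but by -0.19 ± 0.20 SE (95% interval -0.73 to 0.35); a further Nuf2 probe was not well above background on any array and was not kept. Cenpa, the centromeric histone, read 0.56, 1.07 and 0.43 in siRNA-NC cells against 0.94, 0.97 and 0.96 in siRNA-MEG3 cells and overlapped (0.18 ± 0.28 SE). Cenpf, a kinetochore and nuclear matrix protein gene of G2, gave 0.14 ± 0.20 SE, and Cenpe, a kinetochore motor gene, 0.022 ± 0.36 SE.

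All 5 kinesin genes missed the threshold. Kif11, the motor that pushes spindle poles apart, read -2.03, -1.29 and -2.07 in siRNA-NC cells against -0.87, -0.99 and -0.88 in siRNA-MEG3 cells. Each siRNA-MEG3 array was above each siRNA-NC array, at 0.74 ± 0.33 SE (95% interval -0.16 to 1.64, adjusted p = 0.338), but siRNA-NC array 2 itself lay 0.76 above the mean of siRNA-NC arrays 1 and 3. Kif2c, a microtubule depolymerase at centromeres, read -0.77, -0.12 and -0.78 in siRNA-NC cells against -0.23, -0.75 and -0.24 in siRNA-MEG3 cells on its brightest probe, with overlap, and gave -0.046 ± 0.35 SE, its other probe giving 0.17 ± 0.41 SE. Kif4, a chromosome-bound motor, stood at 0.29 ± 0.22 SE with no overlap between groups, while Kif23 and Kif20a, motors of the central spindle, stood at 0.15 ± 0.31 SE and -0.042 ± 0.25 SE.

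Of the 6 genes for spindle, midzone and cytokinesis 0 passed, and 5 had a positive fold change. Dlgap5, encoding the spindle protein HURP, was the exception, with like values on its probes. The brighter read -2.84, -2.03 and -2.71 in siRNA-NC cells against -3.37, -3.30 and -3.34 in siRNA-MEG3 cells and the other -3.59, -2.87 and -3.69 against -4.20, -4.25 and -4.05 in the same order. Both lay lower on every siRNA-MEG3 array, at -0.92 ± 0.33 SE and -0.93 ± 0.33 SE (adjusted p = 0.258 and 0.263). Under normexp background correction of all spots they turned positive, at 0.36 for the brighter and 0.64 for the other. With the spots under a bright speck on siRNA-MEG3 array 2 left out of that correction they were negative, at -0.60 and -0.58. The cause was not tested. Hmmr, a spindle assembly factor and hyaluronan receptor, read 1.52, 1.80 and 1.47 in siRNA-NC cells against 2.23, 2.31 and 2.24 in siRNA-MEG3 cells and was higher on every siRNA-MEG3 array (0.62 ± 0.22 SE, adjusted p = 0.264). Prc1, which bundles microtubules at the midzone, read 3.26, 2.59 and 3.20 in siRNA-NC cells against 3.33, 3.22 and 3.36 in siRNA-MEG3 cells, where siRNA-NC array 2 was the lowest of the 6 (0.37 ± 0.30 SE). Tpx2, the spindle activator of Aurora A, gave 0.33 ± 0.20 SE and 0.15 ± 0.30 SE. Anln, encoding anillin of the contractile ring, gave 0.28 ± 0.23 SE, and Nusap1, a spindle-associated protein gene, 0.10 ± 0.20 SE, whose interval (-0.45 to 0.64) excluded 2-fold in either direction.

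The 2 common markers of dividing cells were close to 0. Mki67, encoding the proliferation antigen Ki-67, read 3.17, 2.69 and 3.17 in siRNA-NC cells against 3.02, 3.21 and 3.03 in siRNA-MEG3 cells on its brightest probe. The groups overlapped, at 0.19 ± 0.27 SE (95% interval -0.53 to 0.91), and the other probe gave 0.10 ± 0.34 SE. Top2a, the topoisomerase that untangles chromosomes, read 0.039, 0.97 and -0.28 in siRNA-NC cells against 0.28, 0.42 and 0.23 in siRNA-MEG3 cells. Its siRNA-NC arrays spanned a wide range that enclosed the siRNA-MEG3 arrays, with a difference of -0.086 ± 0.43 SE (95% interval -1.25 to 1.07), which excludes neither a 2-fold decrease nor a 2-fold increase.

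The spread within a group was larger between the siRNA-NC samples than between the siRNA-MEG3 samples. Between siRNA-NC array 2 and the mean of arrays 1 and 3 the members differed by a median of 0.39 in size, against 0.073 between the siRNA-MEG3 samples and a median fold change of 0.28 in size. The fold change was larger than the gap between siRNA-NC samples for 16 of 37 members (43.2%), beside 49.5% of all kept probes. The members above that gap included Cdc25c, which was not well above background on 2 siRNA-MEG3 arrays, and Cdk1, Aurkb, Ndc80, Dlgap5, Ccna2, Melk, Hmmr and Bub1, and those below it included Ccnb1, Ccnb2, Cdc20, Kif11, Mki67 and Top2a. Without siRNA-NC array 2 the fold change turned positive for Top2a, at 0.46, and negative for the brightest Ccnb1 probe, at -0.27.

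**Figure D4:**
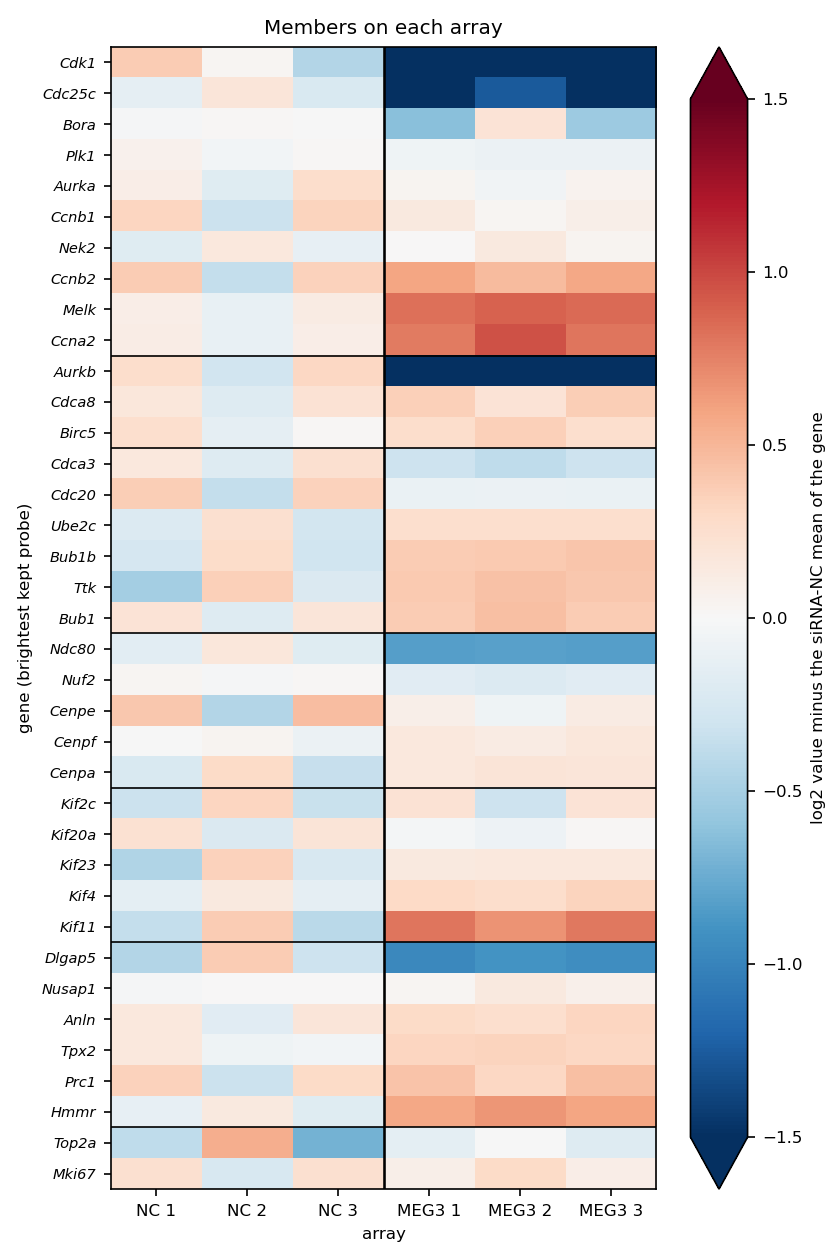
Log2 value of each of the 37 members (rows, brightest kept probe, ordered by role and then fold change) on the 6 arrays (columns), minus the gene's siRNA-NC mean; the colour scale ends at -1.5 and 1.5. Cdk1, Cdc25c and Aurkb are dark blue on the siRNA-MEG3 arrays, and Melk, Ccna2 and Kif11 are red; the centring itself sets siRNA-NC array 2 opposite to the average of siRNA-NC arrays 1 and 3.

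A list of 91 other mitotic genes gave the wider pathway, of which 86 were tested and 0 passed in either direction by limma (1.20% of named genes were called higher and 0.260% lower; at an unadjusted p under 0.05, 18 higher and 1 lower, beside 10.6% and 6.46% of named genes). Their median log2 fold change was 0.33, with 61 positive and 25 negative, and 46 lay higher and 8 lower on every siRNA-MEG3 array (27.5 and 19.6% of named genes). Under normexp background correction of all spots, which moved the median of all named genes to 0.31, the list stood at 0.25 and the 37 members at 0.0080, both below that shift. With the spots under a bright speck on siRNA-MEG3 array 2 left out of that correction, the medians were 0.30 and 0.17 against 0.098 for named genes.

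The 11 regulators of the G2 promoters had 8 positive and 3 negative values, and 0 passed. At an unadjusted p under 0.05, 4 were higher and 1 lower, beside 10.6% and 6.46% of named genes. Mybl2, encoding B-MYB, read -0.50, -0.81 and -0.52 in siRNA-NC cells against 0.64, 0.58 and 0.67 in siRNA-MEG3 cells. It lay higher on every siRNA-MEG3 array, at 1.28 ± 0.22 SE (adjusted p = 0.104), as did Foxm1 (0.94 ± 0.30 SE), the repressor Rbl1 (0.80 ± 0.20 SE), the E2F partner Tfdp1 (0.78 ± 0.21 SE) and the MuvB genes Lin54 (0.49 ± 0.21 SE), Lin52 (0.33 ± 0.21 SE) and Rbbp4 (0.20 ± 0.21 SE). E2f4, the E2F of the repressive DREAM complex, read -0.044, -0.46 and -0.016 in siRNA-NC cells against -1.80, -1.95 and -1.84 in siRNA-MEG3 cells. It lay lower on every siRNA-MEG3 array, at -1.64 ± 0.25 SE (adjusted p = 0.0840), and Lin37 stood at -0.23 ± 0.20 SE. Rbl2 and Lin9 were near 0, at 0.0064 ± 0.31 SE and -0.0057 ± 0.20 SE.

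The other lists are given by their lowest and highest values. The 10 entry kinases, phosphatases and CDK partners tested ran from Cdc25b, a CDK-activating phosphatase, at -0.22 ± 0.26 SE to the histone kinase gene Haspin at 0.70 ± 0.24 SE. The 15 checkpoint, anaphase-promoting complex and separase genes ran from Cdc23 at -0.84 ± 0.43 SE to Trip13, the remodeller of checkpoint proteins, at 1.03 ± 0.24 SE. Of 17 kinetochore and centromere genes 13 were positive, from Knl1 at -0.48 ± 0.21 SE to Cenpu at 0.89 ± 0.25 SE. Spc24 and Spc25, the remaining subunits of the NDC80 complex, were chosen after their values were seen and stood at 0.66 ± 0.20 SE and 0.64 ± 0.25 SE, opposite in sign to Ndc80.

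Kinesin and spindle genes ran from Troap at -0.79 ± 0.65 SE to Kif15, a spindle motor, at 1.42 ± 1.15 SE, and cytokinesis genes from Cep55 at -0.35 ± 0.44 SE to Racgap1, of the centralspindlin complex, at 0.96 ± 0.28 SE. All 11 tested genes of condensin and cohesin, the ring complexes that shape and hold chromosomes, had positive values, from Rad21 at 0.26 ± 0.23 SE to Ncapg2 at 1.03 ± 0.20 SE; under the 6 other scalings and background corrections at least 7 were positive. Among 21 tested genes of the preceding G1/S step 18 were positive (median 0.65), beside 51.3% of named genes, and 0 passed by limma. At an unadjusted p under 0.05, 9 were higher and 1 lower, beside 10.6% and 6.46% of named genes. They ran from Ccne2, cyclin E2, at -2.24 ± 0.67 SE to Tyms, thymidylate synthase, at 1.35 ± 0.20 SE. The 10 tested CDK inhibitor and quiescence genes had a median of 0.21 and 0 passed (0 also at an unadjusted p under 0.05), from Cdkn1b, encoding p27, at -0.84 ± 0.46 SE to Cdkn1a, encoding p21, at 0.52 ± 0.25 SE.

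**Figure D5:**
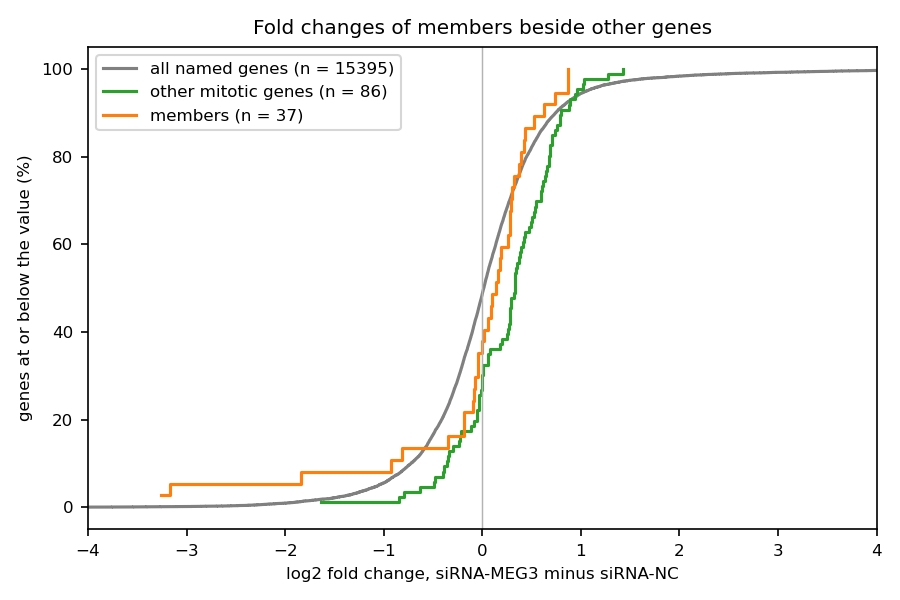
Cumulative share of genes (vertical axis, %) at or below each log2 fold change (horizontal axis) for the 37 members, the 86 other mitotic genes tested and 15395 named genes, by brightest kept probe. The curve of the other mitotic genes lies to the right of all named genes over most of its course, with medians of 0.33 and 0.015, and the members' curve lies between them near the middle with a tail at -3.

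Markers of differentiated muscle moved with the groups. All 6 terminal muscle genes had positive fold changes and 3 rose: Myog, which starts terminal differentiation, by 3.39 ± 0.22 SE, the troponin gene Tnnt3 by 3.92 ± 0.20 SE and the embryonic myosin gene Myh3 by 6.97 ± 0.54 SE (limma adjusted p = 0.0259, 0.0210 and 0.0292). Among named genes 51.3% were positive and 1.20% were called higher. The summed signal of the 6 genes, in units of the array's 75th percentile, was 6.71 to 8.37 on the siRNA-NC arrays and 26.5 to 27.3 on the siRNA-MEG3 arrays. These genes were well above background on all arrays, except Ckm, which was so on 5 of 6. The part of differentiating cells in the members' values was not tested. Of the markers of other cell types, Epcam was above background on 0 arrays and Cdh1 and Krt8 on 1 each, and no immune, endothelial, neuronal or adipocyte marker passed.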

How the data were processed

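RNA of 3 siRNA-NC and 3 siRNA-MEG3 arrays was measured. Per the file headers, Agilent Feature Extraction 11.0.1.1 wrote the authors' scanner files, which hold a processed signal intensity, a median pixel intensity and local background intensity for each spot, with other quality marks (outlier, well above background) that the deposited files give as 0 or 1. The authors' deposited value table is on a log2 scale, and the between-array step behind it stayed unknown. Per the labels, the authors took means over repeated probes, and their normalization factor came from those of intensity 30 or more in every sample.

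Control spots and spots marked as outliers were left out, repeat spots were averaged, and the log2 processed signal was taken relative to the array's 75th percentile over all 39429 probes. Probes well above background on all 3 arrays of either group were kept. Probes were named by RefSeq accession through a GRCm38.p6 table (27234 of 39429). Arrays found near-identical on 227 probes printed 10 times were averaged, and this was decided from the spots. The test was that of limma 3.58.1 under R 4.3.3 (lmFit, eBayes, group as the only term, 2 residual degrees of freedom, 2-sided), with Benjamini-Hochberg adjustment over 26381 kept probes and a threshold of 0.05; the fit was tested on simulated data. SE and intervals are those of that fit. The number of arrays limits the precision. The brightest kept probe stood for a gene. Alternatives changed the counting of arrays, background, scaling, filters, outlier and dark-patch spots, the values and the probe rule.

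The 37 genes and all lists were chosen with earlier results of these data known, so no list test was made. Values on every array are given for genes with a called probe or with probes over 1 apart in log2 fold change, for 13 set members, and for the highest and lowest of each role; genes of other lists are named where called or as the highest and lowest of their list, and the regulators in full. Other genes are named by value only. Same-numbered arrays of the groups did not deviate together (r = -0.029, -0.038 and -0.031), so replicate numbers were not used as pairs.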

Additional observations from a re-analysis of the deposited data

How the results depend on the processing

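Over 23 alternatives the 48 member probes gave 1085 values, of which 997 kept their direction and side of the threshold, 27 newly passed, 3 no longer passed (the low Cdk1 probe) and 58 changed sign, in 23 probes and never past the threshold. The cause was not tested unless an alternative changes the number of samples or probes. Signal over background limits Cdc25c and the dimmest Cdk1 probe. With all 6 arrays as 6 samples, 5 member probes (5 genes) were higher and 4 (4 genes) lower, with 29 higher and 3 lower other mitotic genes, 3575 higher and 3119 lower probes over the array and a member median of 0.20. With only the rescan averaged the counts were 2 and 2 member probes (2 and 2 genes), 6 and 1 other genes, and 1079 and 1070 probes. With the replicate number as a block over 6 arrays they were 2 higher and 3 lower member probes (2 and 3 genes), 10 and 1 other genes, 1610 and 1541 probes, and a median of 0.20; with near-identical arrays averaged the block gave 0 higher and 2 lower member probes (2 genes). Same-numbered arrays did not deviate together, so the block pairs them by number only.

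Normexp on all spots gave 0 member probes and genes, 0 probes over the array in either direction and a median of 0.0080; with speck spots left out it gave 108 higher and 61 lower probes over the array. Without the dim-probe filter 0 member probes, 0 genes and 0 probes over the array passed. Lower calls were 2 member probes, and 2 genes where stated, with probes well above background on all 6 arrays (2 genes), with 1 brightest probe per gene (2 genes), and with dark-patch spots left out (163 lower probes over the array). With outlier spots kept and in the authors' deposited table (median 0.10) 0 member genes passed, because another Cdk1 probe is then the brightest. The mean of all kept probes gave a median of 0.10. Leaving out 1 array at a time gave 0 to 3 lower member probes and genes, 0 to 1 lower other mitotic genes, 0 to 876 higher and 0 to 1954 lower probes over the array and a member median of 0.10 to 0.17; where array 2 of either group is out, the lone sample left is assumed to vary like the other group. Chosen after the data were seen were the 75th percentile without outlier spots (2 lower member probes and genes, median 0.22), the siRNA-MEG3 arrays as 1 sample (3 lower probes, 2 lower genes, 1 lower other gene, 504 higher and 889 lower over the array), siRNA-MEG3 array 2 alone (2 lower probes, 1 lower other gene, 469 and 827 over the array) and an unadjusted p under 0.05 (3 higher and 6 lower member probes, 3 and 5 genes, 18 and 1 other genes, 2517 and 2336 probes).

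Most sign changes were of values near 0, but Cdc25c and both Dlgap5 probes, at -1.84, -0.92 and -0.93, also turned with normexp on all spots. With speck spots left out of that correction they stood at -0.41, -0.60 and -0.58. With 6 samples, and with the block over them, Cenpe stood at -0.095, Top2a at 0.068, the dimmest Cdk1 probe at -0.085 and Kif2c at 0.15. With 5 samples Cenpe stood at -0.12, Top2a at 0.095, Ccnb1 at -0.051 and Kif2c at 0.063. With normexp on all spots the values were -0.18 for Cenpe, -0.032 and 0.30 for Cdca8, -0.16 and -0.24 for Mki67, 0.30 for Bora, -0.18 for Ccnb1, 1.18 for Cdc25c, 0.0046 for Kif2c, -0.0029 and -0.066 for Ube2c, 0.36 and 0.64 for Dlgap5, -0.12 for Nusap1 and -0.022 for Prc1; with speck spots left out Ccnb1 stood at -0.028. The normalization factor of the labels put Aurka at 0.019. Quantile normalization put Aurka at 0.083, Plk1 at 0.0011, Kif20a at 0.024 and Kif2c at 0.019. Without dark-patch spots Mki67 stood at -0.29, Bora at 0.21 and Ccnb1 at -0.28, and array 2 alone gave the same with Cenpe at -0.061. The authors' deposited table put Cenpf at -0.0022, Aurka at 0.019 and Kif20a at 0.0036. The percentile without outlier spots put Aurka at 0.066, Kif20a at 0.035 and Kif2c at 0.031, and the siRNA-MEG3 arrays as 1 sample put Kif2c at 0.040. Leaving out 1 array at a time gave -0.41 to 0.11 for Cenpe, -0.29 to 0.021 for a Birc5 probe, -0.053 to 0.19 for Mki67, -0.17 to 0.46 for Top2a, -0.27 to 0.086 for Ccnb1, -0.23 to 0.25 for the dimmest Cdk1 probe, -0.049 to 0.28 for Kif2c and -0.19 to 0.052 for Aurka.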
